A study of Mus musculus with 4 samples.

Results

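The NF-kB pathway was examined through 10 genes in 4 mouse mammary tumor cell lines profiled by RNA-seq. They were the subunit genes Nfkb1, Nfkb2, Rela and Relb, the inhibitor genes Nfkbia, Nfkbie and Tnfaip3, the adhesion molecule genes Icam1 and Vcam1, and Ptx3, which encodes a secreted pentraxin. The genes were a named list out of 21090 in the table, and Ptx3 was placed on it because its level in these libraries was higher in both knockout lines. Of the 10 genes, 9 had a mean of at least 1 RPKM (a read count divided by the gene's length and by the library's total) and entered the tests. Icam1 did not. By the paper's account the lines descend from a mammary tumor that had spread to the lung. It arose in a mouse carrying mutant Pik3ca and mutant Trp53 together with Cre recombinase under the MMTV promoter, so all 4 lines would share these alleles. Controls were the parental cells and their vector control line. Knockouts were a line in which lentiviral Cas9 and a guide RNA targeted exon 3 of S100a4, whose calcium-binding protein is linked to metastasis, and a line with a guide against exon 2. Each line gave 1 library (n = 2 per group), so a test measures the spread between lines, and the effect of the knockout cannot be told apart from differences between infected and selected cell populations. The titles name the exon 2 line as cell 308 and the other 3 as cell 307. The paper describes a single starting line, and what the number 308 stands for is not stated. If it names another line, the exon 2 knockout has no matched control.

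NF-kB is a family of dimeric transcription factors that wait in the cytoplasm, bound by inhibitor (IkB) proteins. Ligands such as TNF and IL-1 act through receptors and adaptors to switch on the IkB kinase, which marks the inhibitors for destruction and frees the dimers to enter the nucleus. Nfkb1 encodes p105 and its product p50, Nfkb2 encodes p100 and its product p52, and these partner with the transactivating subunits encoded by Rela, Relb and Rel. Nfkbia, Nfkbie and Tnfaip3 are themselves transcribed in response to NF-kB and restrain it, and Icam1, Vcam1, Ptx3 and many chemokine genes are well known targets.

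Promoter letters are shown because NF-kB acts on its targets through short motifs near their start sites. RefSeq start sites (GRCm38.p6) were found for 7 of the 10 genes, giving 10 start sites, and none for Nfkb1, Relb and Vcam1. The 250 bases before each start were searched on both strands for the kB motif (the 10-base consensus of 3 G, a purine, any 2 bases, 2 pyrimidines and 2 C) and for the AP-1 motif TGANTCA, which do not overlap in any of these windows. The kB motif occurred in 6 of the 10 windows, all those of Nfkb2 and 1 each of Nfkbia, Nfkbie and Tnfaip3. It occurred in 7.25% of the 32851 promoters in the RefSeq table. The AP-1 motif occurred in 3 of the 10 windows, 1 each of Nfkb2, Nfkbie and Tnfaip3, and in 6.75% of all promoters. This strict consensus was not matched in the windows of Rela, Icam1 and Ptx3, and sites that depart from it by a base were not counted. The whole upstream window is given for Nfkbia, whose match starts at position -29 from the start site, and for Ptx3, with kB matches in capitals and all letters 5′ to 3′ on the strand of the gene.
Nfkbia (chr12:55492648-55492897, minus strand): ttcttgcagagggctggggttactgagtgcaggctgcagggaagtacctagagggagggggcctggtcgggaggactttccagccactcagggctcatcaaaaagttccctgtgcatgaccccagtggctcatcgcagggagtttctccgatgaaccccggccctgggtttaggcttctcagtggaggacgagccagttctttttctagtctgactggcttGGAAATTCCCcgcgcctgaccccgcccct
Ptx3 (chr3:66219637-66219886, plus strand): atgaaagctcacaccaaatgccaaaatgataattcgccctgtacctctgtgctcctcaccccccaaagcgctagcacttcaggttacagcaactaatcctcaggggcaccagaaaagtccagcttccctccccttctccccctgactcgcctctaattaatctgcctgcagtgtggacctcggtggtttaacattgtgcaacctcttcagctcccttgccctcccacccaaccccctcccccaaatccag
For the other 3 genes 1 match each is given with 9 bases on each side, since the windows of Nfkb2 and Tnfaip3 run into annotated exons. The Nfkb2 run holds 2 overlapping matches, 1 per strand, from position -39. The matches shown for Nfkbie and Tnfaip3 begin at -106 and -125. Further kB matches, not shown, begin at -12 in Tnfaip3 and at -11 in the same Nfkb2 window. The other start sites of Nfkb2 had matches at -236 and -225, also not shown.
Nfkb2 (chr19:46304689-46304717, plus strand): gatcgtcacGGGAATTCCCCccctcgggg
Nfkbie (chr17:45555585-45555612, plus strand): cagcaaacaGGGGGATTCCggaggggcg
Tnfaip3 (chr10:19015517-19015544, minus strand): actcacgcgGGGACACCCCggggcggga
A match is a run of letters and not a measured binding site. The values of these 4 genes are given below.

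S100a4 was checked before the other genes. RPKM values were 3576 (parental), 4741 (vector), 1136 (exon 3) and 1105 (exon 2). Transcripts were fewer in both knockouts but still abundant, with a log2 change of -1.88 (SE 0.311) and an adjusted p of 0.0731 in limma. Totals behind the RPKM ran from 22472024 to 31235456 reads, of which 64.4% to 66.4% fell in genes. Among the cell type markers, 8 of 9 mesenchymal genes had a mean of at least 1 RPKM (summed RPKM 5960 and 3239 in the controls, 3144 and 2941 in the knockouts). Of 8 epithelial markers only Krt8 and Krt18 did (summed RPKM 130 and 34.4 in the controls, 107 and 74.9 in the knockouts), and the defining genes Epcam and Cdh1 stayed under 1. Of 8 leukocyte markers only Cd68 did, with summed RPKM of 5.01 and 3.91 in the controls and 12.02 and 13.8 in the knockouts. Ptprc, which all leukocytes express, was listed at 0 in 3 libraries and at 0.0101 in the vector control. None of 6 endothelial markers reached 1, with summed RPKM between 0.214 and 0.458. In bulk RNA, fewer cells carrying a transcript and less of it per cell cannot be told apart.

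Limma on log2(RPKM + 1) called 2 of 10871 genes (0.0184%) at an adjusted p under 0.05, and 0 of the 8 tested genes of the list other than Ptx3, of which 2 had an unadjusted p under 0.05 against 2076 of all 10871. A log2 change is the knockout mean minus the control mean on this scale. Of these 8 genes, 4 had a negative and 4 a positive log2 change (5974 of all 10871 were negative), with a median of -0.15 against -0.08 over all tested genes. The knockouts lay below both controls in 4 genes (Nfkb1, Nfkbia, Nfkbie and Vcam1), an arrangement found in 31.2% of all tested genes. They lay above both controls in 1 (Rela), against 21.9% of all tested genes. A difference of at least 2-fold in all 4 knockout and control pairs was seen among these 8 for Vcam1 alone, which was lower. Over all tested genes this held for 1.73% in the lower direction and 0.267% in the higher one.

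**Figure D1:**
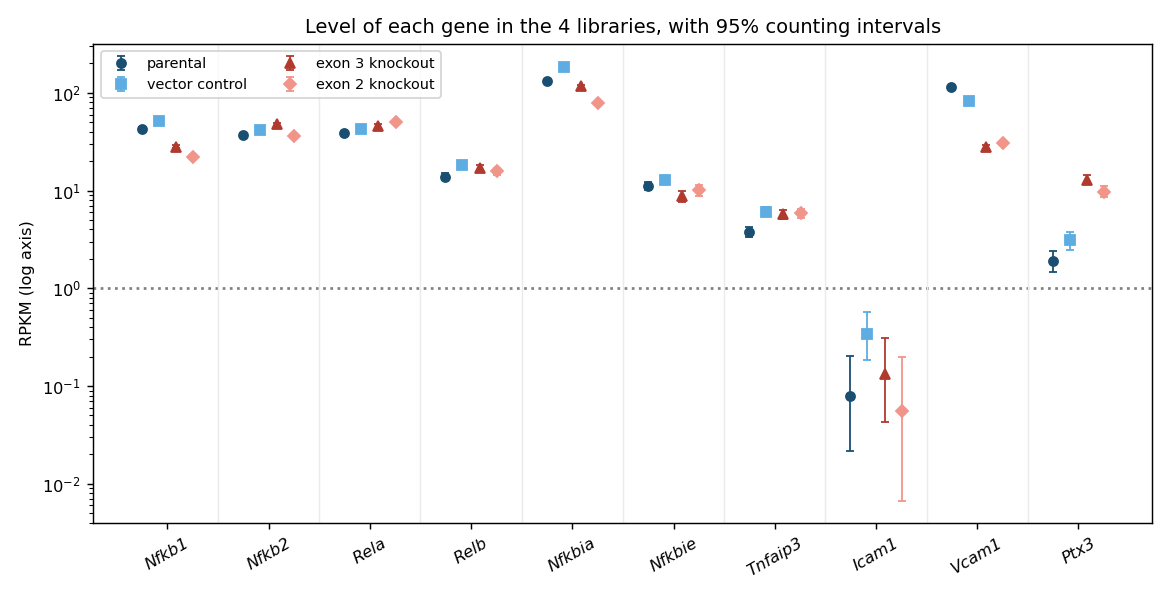
RPKM (log axis) of the 10 genes in the 4 libraries, each point 1 library and each bar its exact 95% Poisson counting interval, with a dotted line at the filter of 1 RPKM. Vcam1 lay between 81.9 and 114 in the controls and between 28.04 and 30.7 in the knockouts, Ptx3 between 1.90 and 3.09 and between 9.79 and 12.9, and Icam1 under the line throughout.

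Among the 4 listed subunits, Nfkb1 had the log2 change furthest from 0. Nfkb1 (chromosome 3, 135584655 to 135691547, GRCm38, minus strand) had an RPKM of 43.1 (parental), 51.6 (vector), 28.2 (exon 3) and 22.2 (exon 2). Both knockouts were below both controls, by 0.59 to 1.18 on the log2 scale. The counting intervals of the knockouts, from 1951 and 1468 reads, ended at 29.5 and 23.4, and those of the controls began at 41.8 and 49.95. Controls averaged 47.3 ± 5.97 RPKM (SD, n = 2) and knockouts 25.2 ± 4.27 (SD, n = 2), a log2 change of -0.89 (SE 0.308) that did not pass the test (limma adjusted p 0.179).

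Rela (chromosome 19, 5637483 to 5648130, plus strand), the gene of the main transactivating subunit p65, had an RPKM of 38.8 (parental), 43.0 (vector), 46.2 (exon 3) and 50.3 (exon 2). The knockouts were above the controls in 4 of 4 pairs, but the differences were small (0.10 to 0.37 on the log2 scale). The interval of the exon 3 knockout, 44.1 to 48.4, overlapped that of the vector control, 41.1 to 45.1, and the log2 change of 0.23 (SE 0.295) had a limma adjusted p of 0.685.

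Nfkb2 (chromosome 19, 46304320 to 46312385, plus strand), the gene of the non-canonical pathway's precursor p100, had an RPKM of 37.3 (parental), 41.5 (vector), 47.6 (exon 3) and 36.0 (exon 2), so that the knockouts lay on opposite sides of the controls. Its log2 change was 0.07 (SE 0.306, limma adjusted p 0.916). Relb (chromosome 7, 19606217 to 19629438, minus strand), the partner of p52 in that pathway, had an RPKM of 13.9 (parental), 18.2 (vector), 16.8 (exon 3) and 15.7 (exon 2). The controls enclosed both knockouts, with a log2 change of 0.03 (SE 0.316, limma adjusted p 0.973).

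The makeup of the subunit transcripts was compared within each library. RPKM divides by a gene length, which equalled the annotated coding length for Relb (1677 bases) and was near it for Nfkb1 (2943 against 2916), Nfkb2 (2703 against 2700) and Rela (1678 against 1650). The gene model and counting rule are not stated, so a level between genes holds only as far as those lengths do. Nfkb1 made up 31.3% and 32.1% of the summed RPKM of the 5 subunit genes in the controls (parental, then vector), and 20.1% and 17.6% in the knockouts (exon 3, then exon 2, an order kept throughout). Rela made up 28.1% and 26.8% in the controls and 32.9% and 39.8% in the knockouts. The ratio of Nfkb1 to Rela was 1.11 (95% counting interval 1.05 to 1.17) for parental and 1.20 (1.13 to 1.27) for vector control cells. Exon 3 edited cells gave 0.611 (0.573 to 0.651) and exon 2 edited cells 0.441 (0.412 to 0.473). Nfkb1 was the more abundant of the pair in both controls and the less abundant in both knockouts. Relb to Rela gave 0.359 and 0.423 in the controls and 0.364 and 0.313 in the knockouts, so that the groups overlapped. The ratio of Nfkb2 to Nfkb1 was 0.865 and 0.805 in the controls and 1.69 and 1.62 in the knockouts. It rests on the same Nfkb1 values and is no separate result, since Nfkb2 itself did not separate the groups. Rel, which encodes c-Rel and is the scarcest of the 5, had RPKM of 4.82 and 6.46 in the controls and 1.40 and 2.24 in the knockouts (log2 change -1.24, limma adjusted p 0.139), a larger change than that of Nfkb1. It made up 3.49% and 4.02% in the controls and 0.996% and 1.77% in the knockouts. A single scaling factor per library leaves these ratios as they are, while corrections that act on each gene do not. The log2 changes of Nfkb1 and Rela were -0.67 and 0.12 with the correction for coding GC content and length, and -0.43 and 0.17 with chromosome centring. The intervals cover counting error only, and with n = 2 no exact permutation test can go below a p of 0.33. The sum of the 5 genes was 138 and 161 RPKM in the controls and 140 and 127 RPKM in the knockouts, and thus did not separate the groups.

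**Figure D2:**
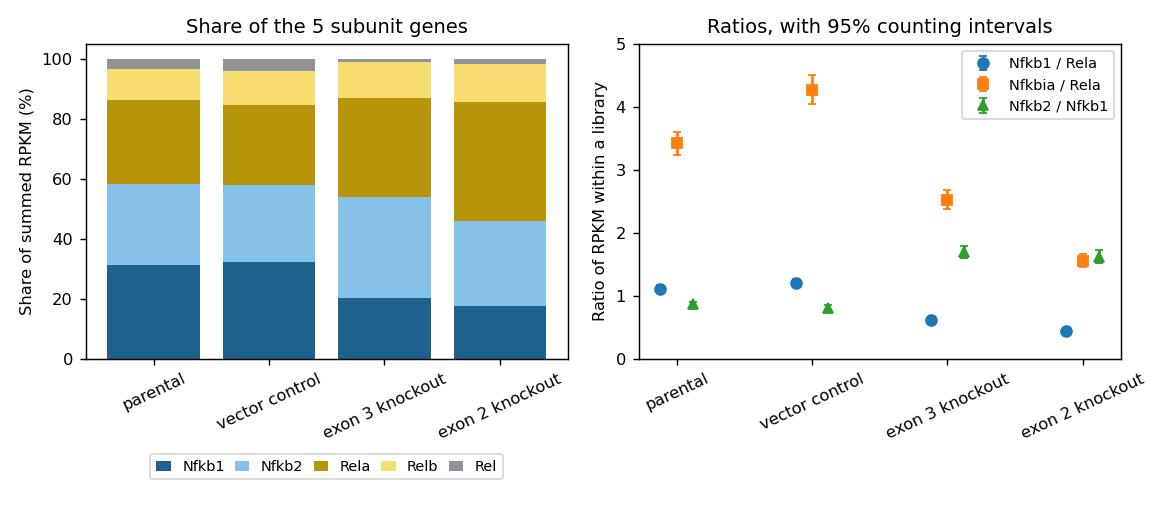
Left, share of the summed RPKM (%) of Nfkb1, Nfkb2, Rela, Relb and Rel in each library. Right, ratios of RPKM within each library with 95% counting intervals; Nfkb1 to Rela lay between 1.11 and 1.20 in the controls and between 0.441 and 0.611 in the knockouts.

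Of the feedback inhibitors, Nfkbia was the most abundant gene of the list in every library. Nfkbia (chromosome 12, 55489410 to 55492647, minus strand) encodes IkB-alpha, which holds p65 and p50 in the cytoplasm. RPKM values were 133 (parental), 184 (vector), 117 (exon 3) and 78.1 (exon 2). Both knockouts were below both controls, yet the exon 3 knockout was only 0.18 below the parental line on the log2 scale, and the controls themselves differed by 0.47. The log2 change was -0.70 (SE 0.326, limma adjusted p 0.268). Set against Rela, the ratio of Nfkbia was 3.42 and 4.27 in the controls and 2.53 and 1.55 in the knockouts. Set against Nfkb1, it was 3.08 and 3.57 in the controls and 4.14 and 3.52 in the knockouts, so that the 2 groups overlapped on this ratio.

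Nfkbie (chromosome 17, 45555703 to 45563169, plus strand) encodes IkB-epsilon, a slower inhibitor of the same dimers. RPKM values were 11.2 (parental), 12.9 (vector), 8.76 (exon 3) and 10.1 (exon 2). The knockouts were lower in all 4 pairs, by 0.15 to 0.51 on the log2 scale, though the interval of the exon 2 knockout (8.88 to 11.3) overlapped that of the parental line (10.2 to 12.4). The log2 change was -0.33 (SE 0.319, limma adjusted p 0.590). Tnfaip3 (chromosome 10, 19000910 to 19015657, minus strand), which encodes the ubiquitin-editing enzyme A20 that ends signalling above the IkB kinase, had an RPKM of 3.77 (parental), 6.07 (vector), 5.75 (exon 3) and 5.84 (exon 2). The parental line was the low one, and the other 3 libraries had overlapping intervals, with a log2 change of 0.23 (SE 0.355, limma adjusted p 0.749). Of the 4 genes with a kB match in the window before the start site, Nfkbia and Nfkbie were lower in all 4 pairs. Nfkb2 and Tnfaip3 did not separate the groups, and none of the 4 passed the test.

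The adhesion molecule genes differed from each other by their level. Vcam1 (chromosome 3, 116109949 to 116129688, minus strand) encodes an immunoglobulin-family ligand of the integrin of alpha 4 and beta 1 chains, familiar from activated endothelium. RPKM values were 114 (parental), 81.9 (vector), 28.04 (exon 3) and 30.7 (exon 2). The groups did not overlap, and the knockouts lay within 0.12 of each other on the log2 scale, less than the 0.48 between the controls. The counts behind these values were 7923, 4620, 1461 and 1529 reads. The control mean was 98.1 ± 22.9 (SD, n = 2) and the knockout mean 29.3 ± 1.85 (SD, n = 2), so that the knockouts held 29.9% of the control level. The log2 change was -1.69 (SE 0.308), and the limma adjusted p of 0.091 missed the threshold. Vcam1 passed it without the vector control (adjusted p 4.09e-05) and without the parental line (0.00477), in fits where the remaining control is assumed to vary as the knockouts do, and with a filter at a mean of 5 RPKM (0.0475) or a robust prior (0.00626). It did not pass in the other alternatives, and after a correction for coding GC content and length its log2 change was -1.15 (adjusted p 0.299) and it was no longer 2-fold lower in every pair. By level, Vcam1 stood at percentile 93.2 and 88.0 of the tested genes in the controls and at 66.9 and 68.7 in the knockouts.

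Icam1 (chromosome 9, 21015985 to 21028817, plus strand), which encodes the ligand of leukocyte beta 2 integrins, was near the detection limit. It had 4, 14, 5 and 2 reads in the parental, vector control, exon 3 and exon 2 libraries, or 0.0793, 0.342, 0.132 and 0.0551 RPKM. The intervals of the parental line (0.0216 to 0.203) and of both knockouts (0.0429 to 0.308 and 0.00668 to 0.199) overlapped, and a difference between the groups was not detectable at this depth. Endothelial markers, with which Vcam1 and Icam1 are often read, were near 0 in all 4 libraries.

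Ptx3 (chromosome 3, 66219910 to 66225805, plus strand) encodes the long pentraxin PTX3, a soluble pattern recognition protein that fibroblasts, endothelial and myeloid cells secrete after TNF or IL-1 and that also stabilises the hyaluronan matrix. RPKM values were 1.90 (parental), 3.09 (vector), 12.9 (exon 3) and 9.79 (exon 2), from 68, 90, 347 and 252 reads. Both knockouts were above both controls, which is what placed the gene on the list, so no test is given. Controls averaged 2.50 ± 0.843 RPKM (SD, n = 2) and knockouts 11.3 ± 2.20 (SD, n = 2), 4.54-fold higher. The log2 change of 1.83 (SE 0.357) is smaller than that fold because of the added 1 RPKM. Of the leukocyte markers Cd68 was also above both controls in the knockouts (4.92 and 3.36 RPKM against 11.5 and 13.2), while Ptprc and Cd3e were at or near 0. The myeloid markers Emr1 (0 in all 4 libraries), Itgam (at most 0.0123 RPKM), Csf1r (at most 0.173) and Lyz2 (at most 0.597) stayed under 1. Ptx3 stood at percentile 5.59 and 11.3 of the tested genes in the controls and at 47.3 and 38.4 in the knockouts. In the controls it was below Tnfaip3 and Nfkbie, and in both knockouts it was above Tnfaip3. Against Nfkbie (8.76 and 10.1) it was higher in the exon 3 knockout and near it in the exon 2 knockout. Ordered by the smallest increase over the 4 pairs, the genes just above and below Ptx3 (1.40 on the log2 scale) were Pim1 (1.42) and Fam195a (1.35).

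The genes whose centred log2 levels lay nearest to those of Ptx3 over the 4 libraries were Pim1 (Euclidean distance 0.345), Cox6a2 (0.402), Arl4d (0.436), Trnp1 (0.477) and Fam195a (0.489). Pim1, a serine/threonine kinase gene, had RPKM of 5.54, 7.98, 23.1 and 24.4 in the same order of libraries. Cox6a2, a muscle form of a cytochrome oxidase subunit, had 2.51, 2.95, 18.4 and 10.4. Nearness was measured on the pattern that chose Ptx3, over 4 libraries of 4 lines, and describes them only. Of the other genes of the list, Tnfaip3 was the nearest to Ptx3 at a distance of 1.63 (place 2648 of 10870), and Vcam1 the furthest at 3.60 (place 10744).

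**Figure D3:**
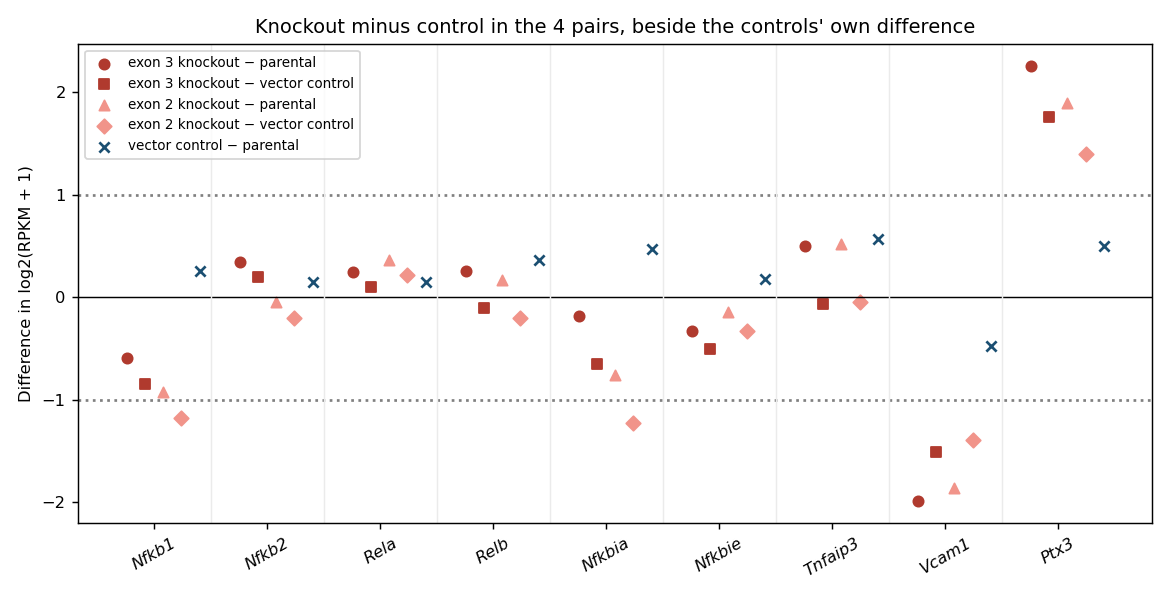
Difference in log2(RPKM + 1) of the 9 tested genes for each knockout and control pair (red points), beside vector control minus parental line (blue crosses), with dotted lines at 2-fold. Vcam1 lay under the lower line and Ptx3 above the upper line in all 4 pairs; Nfkb1 and Nfkbia passed the lower line in 1 pair each.

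The spread within a group was read from the pairs of lines that share a label. Of all tested genes, 8.53% were at least 2-fold apart between vector control and parental cells, and between the exon 2 and exon 3 knockouts 4.99%. None of the 8 tested genes other than Ptx3 was 2-fold apart in either comparison. The vector control was above the parental line in 7 of the 8, all but Vcam1, against 63.4% of all tested genes. Between the controls the largest differences were those of Tnfaip3 (0.57 on the log2 scale), Vcam1 (-0.48) and Nfkbia (0.47), and between the knockouts that of Nfkbia (-0.57, exon 2 minus exon 3).

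Other genes of the pathway, and partners of the pentraxin and of the adhesion molecules, were taken as 8 lists of 118 genes. Of these, 83 were tested and 0 called by limma. The 83 include 6 genes of pentraxins and the PTX3 matrix and 8 adhesion partners, so the counts are not of the pathway alone. Of the 83, 56 had a negative and 27 a positive log2 change, beside 5974 negative and 4897 positive of all 10871, with a median of -0.39 against -0.08 over all tested genes, and of -0.21 against 0.05 after the GC and length correction. At an unadjusted p under 0.05 there were 28 of the 83, against 2076 of 10871. At least 2-fold lower in all 4 pairs were 4 of the 83, against 1.73% of all tested genes. At least 2-fold higher were 0, against 0.267%. The lists were drawn up with earlier results of these data known. Several listed genes, among them Birc3, Cflar, Mmp9, Ccl2 and Itgb1 named below, had been picked by the study from these libraries. Neither their direction nor the counts and medians above are independent of these data.

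Most ligands were scarce. Of 9 ligand genes only Il33 and Tnfsf12 were tested, and Tnf, Il1a, Il1b and Lta stayed under 0.32 RPKM in every library. Tnfsf12 was not scarce, with RPKM of 22.4 and 15.5 in the controls and 26.5 and 19.2 in the knockouts. Il33, an alarmin of the IL-1 family, had RPKM of 3.28 and 2.95 in the controls and 0.957 and 1.67 in the knockouts (log2 change -0.85, limma adjusted p 0.250, and -0.45 after the GC and length correction). All 11 receptor genes were tested, 6 with a negative and 5 with a positive log2 change. Il1r1, the signalling receptor of IL-1, had RPKM of 6.34 and 4.19 in the controls and 1.90 and 1.62 in the knockouts (log2 change -1.16, limma adjusted p 0.157, and -0.51 after the GC and length correction).

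Of 20 adaptor genes, all tested, 16 had a negative log2 change (median -0.39). Birc3, which encodes the ubiquitin ligase cIAP2, was the gene of this list at least 2-fold lower in all 4 pairs (1.73% of all tested genes). It had RPKM of 9.09 and 9.53 in the controls and 3.46 and 3.87 in the knockouts (limma adjusted p 0.138). Its log2 change was -1.145, and -0.82 after the GC and length correction. The 5 kinase genes all had negative log2 changes (-0.96 to -0.13), with a median of -0.48, and of -0.24 after that correction. Chuk, the gene of IkB kinase alpha, had RPKM of 11.6 and 16.8 in the controls and 5.48 and 8.17 in the knockouts. After the GC and length correction its log2 change went from -0.96 to -0.24. Of the remaining subunit and inhibitor genes, 6 of 9 were negative, and Cyld, a deubiquitinase that restrains the pathway, had RPKM of 19.2 and 23.5 in the controls and 7.15 and 9.50 in the knockouts (log2 change -1.27, limma adjusted p 0.117, and -0.52 after the GC and length correction).

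Target genes spread more widely than any other of these lists, from -1.83 to 1.36. Of 22 tested genes 13 were negative (median -0.55, and -0.65 after the GC and length correction), beside 5974 of all 10871. The knockouts lay below both controls in 7 of the 22 and above both in 5, against 31.2% and 21.9% of all tested genes. The targets at least 2-fold lower in all 4 pairs were Ccl2, Cflar and Mmp9, against 1.73% of all tested genes. At least 2-fold higher were 0, against 0.267%. After the GC and length correction the log2 change was -1.73 for Ccl2, -1.15 for Cflar and -1.57 for Mmp9. Ccl2, the monocyte-attracting chemokine, had RPKM of 104 and 225 in the controls and 50.8 and 35.2 in the knockouts (log2 change -1.83, limma adjusted p 0.0979), and the controls differed from each other by 1.11 on the log2 scale. Cflar, which encodes the death receptor inhibitor c-FLIP, had 11.1 and 10.4 in the controls and 3.25 and 2.82 in the knockouts (log2 change -1.54, limma adjusted p 0.0979). Mmp9, a gelatinase gene, had 3.42 and 3.03 in the controls and 0.971 and 0.122 in the knockouts (log2 change -1.51, limma adjusted p 0.130). Of these 22 genes, 8 were 2-fold apart between the controls alone, against 8.53% of all tested genes.

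**Figure D4:**
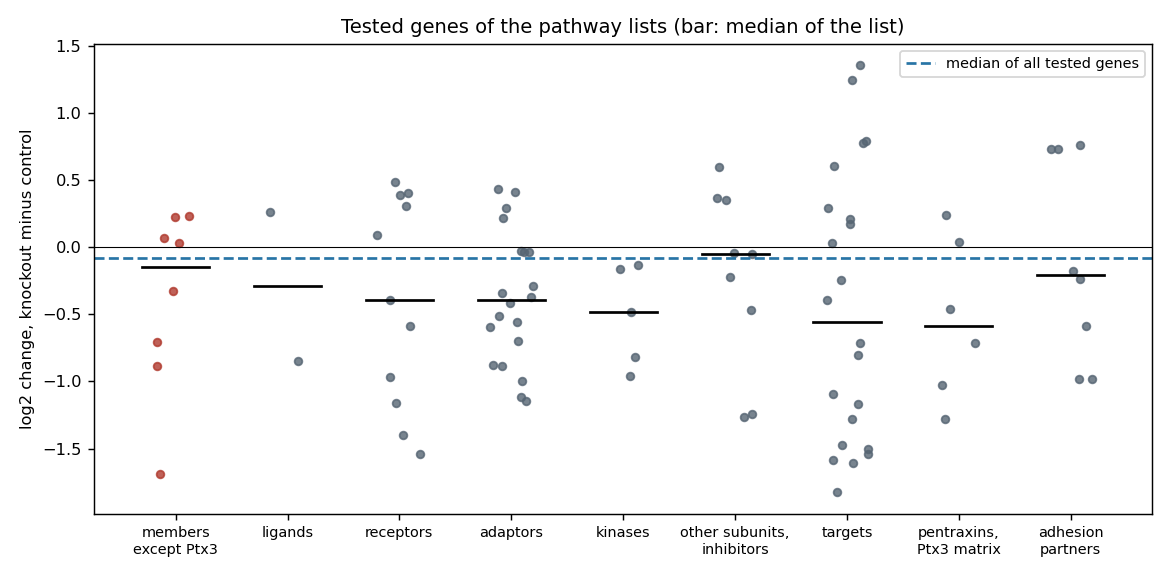
log2 change (knockout minus control) of each tested gene in the pathway and partner lists, 1 point per gene. Bars mark the median of each list and the dashed line the median of all tested genes (-0.08). The target genes ran from -1.83 to 1.36, and the genes of the main list other than Ptx3 from -1.69 to 0.23.

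Partners of the pentraxin and of the adhesion molecules completed the lists. Of 16 genes of pentraxins and the PTX3 matrix 6 were tested, 4 with a negative and 2 with a positive log2 change, and of 13 adhesion partners 8 were tested, 5 negative and 3 positive. The short pentraxin gene Crp had at most 0.0581 RPKM and Apcs was listed at 0 in all 4 libraries. Tnfaip6, whose product TSG-6 joins PTX3 in the hyaluronan matrix, had RPKM of 0.889 and 2.43 in the controls and 0.566 and 0.537 in the knockouts (log2 change -0.71, limma adjusted p 0.373, and -0.45 after the GC and length correction). Only the vector control was above 1 RPKM, and the controls differed from each other by 0.86 on the log2 scale, more than that change. Itga4, the alpha chain of the Vcam1 receptor, was listed at 0 in all 4 libraries, while the beta chain gene Itgb1 had RPKM of 291 and 261 in the controls and 140 and 138 in the knockouts (log2 change -0.98, limma adjusted p 0.138). After the GC and length correction the log2 change of Itgb1 was -0.23.

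Each gene was next set beside the other genes of its chromosome. The tested genes of chromosome 3, which holds Nfkb1, Vcam1 and Ptx3 as well as the edited S100a4, had a median log2 change of -0.49, and those of chromosome 12, which holds Nfkbia, of -0.50. These were the lowest 2 of 20 chromosomes. Chromosome 17, with Nfkbie, had the highest median at 0.29. With each library centred on the median of each chromosome, an alternative chosen after seeing the data, the log2 change was -0.43 for Nfkb1, -0.20 for Nfkbia, -0.59 for Nfkbie, -1.23 for Vcam1 and 2.29 for Ptx3. The part of the chromosome in these results was not tested.

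**Figure D5:**
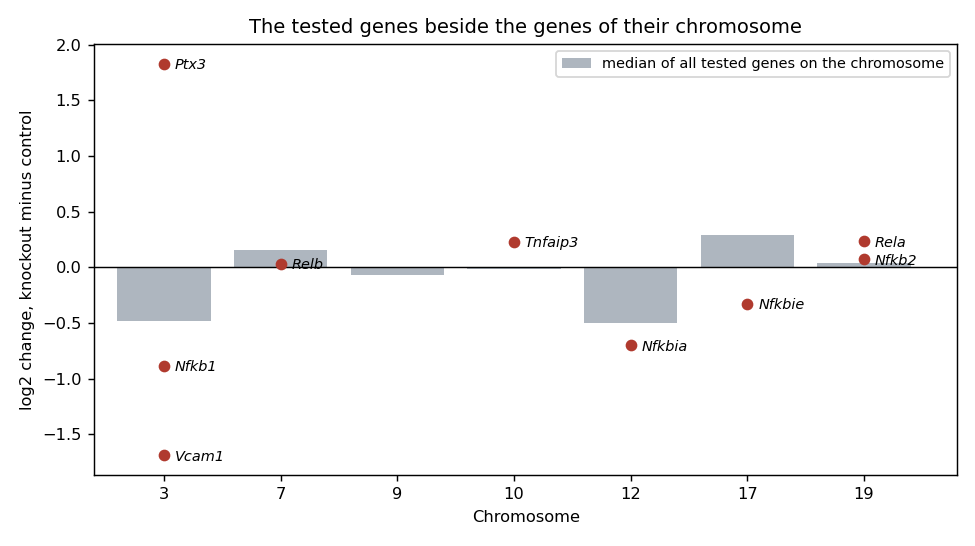
log2 change (knockout minus control) of the 9 tested genes (red points) on the chromosomes that carry the listed genes, with grey bars at the median of all tested genes of that chromosome. Nfkb1 and Vcam1 lay below and Ptx3 above the chromosome 3 median of -0.49, and Nfkbia lay near the chromosome 12 median of -0.50.

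Coding GC content ranged from 46.9% for Vcam1 to 61.0% for Relb. Over the 8 tested genes other than Ptx3 it correlated with the log2 change at Spearman's rho 0.238 (Pearson's r 0.574), and over 10773 tested genes at rho 0.485 (r 0.458), as a description of genes that share the same 4 libraries. With the GC and length correction the log2 change was -0.67 for Nfkb1, -0.94 for Nfkbia, -0.56 for Nfkbie, 0.50 for Tnfaip3 and 1.62 for Ptx3, and that of Relb turned from 0.03 to -0.13. Ptx3 lies inside Veph1, a gene of the opposite strand with at most 0.0605 RPKM. Antisense genes overlap Icam1 and Vcam1, and Psd, with 0.870 to 1.84 RPKM, overlaps Nfkb2 by 299 bases. The counting is not stated to use strand, so reads of such pairs cannot be told apart.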

How the data were processed

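RNA was extracted from 4 mammary tumor cell lines with a column kit and sequenced as Illumina libraries. The labels name a stranded total RNA kit. The authors deposited 1 table of RPKM values, 1 column per library and no log scale. Submitters' processing notes name CASAVA 1.8, GSNAP and GRCm38, while the gene model and counting rule are not given in the sources used here. All 4 columns were matched to a library by its label, and groups came from the sample titles. RPKM is a whole read count divided by length and total, and whole reads came out for 100% of genes above 0 within a tolerance of 0.001 reads. For 55.5% of tested genes the length equalled an annotated coding length (GENCODE M21). Levels were tested as log2(RPKM + 1) in limma 3.58.1 (R 4.3.3) with an intensity trend, for 10871 genes with a mean of at least 1 RPKM, with Benjamini-Hochberg adjustment over all of them and a threshold of 0.05. Limma was tested on simulated data beforehand. Limma voom on the recovered reads called 0 genes. Intervals are exact Poisson 95% intervals of the reads and, for ratios, binomial ones, and cover counting error only. Sequences are from RefSeq (GRCm38.p6). Other calculations used Python 3.11.15, numpy 2.4.6, pandas 2.3.3 and scipy 1.17.1.

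The genes and lists were chosen with earlier results of these data known. From each pathway or partner list, genes at least 2-fold apart in all 4 pairs were named (up to 5 by the smallest change). Where a list had none, the gene with the largest smallest change was named. For Ptx3 the 5 nearest genes by distance were named. Other genes mentioned (Tnfsf12, Tnf, Il1a, Il1b, Lta, Rel, Crp, Apcs, Itga4, Psd and Veph1) were chosen after their values were seen. Alternatives were other pseudocounts, filters, scalings, priors, a GC content and length correction, and leaving out each library. Edited reads and guide sequences were not used here.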

Additional observations from a re-analysis of the deposited data

Results flagged for a closer look

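Nfkb2 was the 1 gene of the list whose knockouts lay on opposite sides of both controls. The exon 3 knockout (47.6 RPKM, 95% counting interval 46.0 to 49.4) was above the parental line (37.3) and the vector control (41.5), and the exon 2 knockout (36.0, interval 34.5 to 37.5) was below both, although that interval overlapped the 36.0 to 38.6 of the parental line. The exon 3 knockout exceeded the exon 2 knockout by 0.395 on the log2(RPKM + 1) scale, and this difference was not tested, each line having 1 library. Of all 10871 tested genes, 857 (7.88%) had knockouts on opposite sides in this way.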

How the results depend on the processing

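Of the listed genes, Icam1 had too few reads to be tested. No paired analysis was possible because the replicate numbers follow deposition order and pair nothing. Limma called 2 of all tested genes; this became 1 with a pseudocount of 0.1, 0 with no filter, 32 with a filter at 5 RPKM, 0 with median ratio scaling, 1 with quantile normalization, 285 with a robust prior, 0 with the GC content and length correction, 0 with chromosome centring and 0 with voom (1405 to 2177 genes at an unadjusted limma p under 0.05 in the fits that called 0). Leaving out each library gave 3 to 788 calls, the most without the parental line, with the lone sample assumed to vary like the other group. The listed genes other than Ptx3 went from 0 calls to 1, Vcam1, with the filter at 5 RPKM and with the robust prior, and ranged from 0 to 1 when a library was left out, being 1 without either control. Listed genes other than Ptx3 that were 2-fold apart in all 4 pairs numbered 1, and 0 after the GC content and length correction, 0 after chromosome centring, 2 at 1.5-fold (Nfkb1 and Vcam1) and 0 at 3-fold. It stayed at 1, Vcam1, without each library.

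Signs turned for small changes. Leaving out a library gave -0.125 to 0.270 for Nfkb2 (-0.003 without the parental line, -0.125 without the exon 3 knockout), -0.154 to 0.212 for Relb (-0.154 without the parental line, -0.017 without the exon 3 knockout) and -0.058 to 0.511 for Tnfaip3 (the lowest without the parental line). Relb also went to -0.131 with the GC content and length correction and -0.102 with chromosome centring. Over all 14 alternatives the log2 change ranged from -1.05 to -0.43 for Nfkb1, from -0.99 to -0.20 for Nfkbia, from -0.59 to -0.07 for Nfkbie, from 0.12 to 0.33 for Rela, from -1.93 to -1.15 for Vcam1 and from 1.58 to 2.29 for Ptx3. The cause was not tested. The median of all tested genes shifted by 0.125 with the GC content and length correction and by 0.119 with quantile normalization.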
